A study of Sus scrofa with 41 samples.

Results

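The 7 genes LCP1, PTPRC, CD79A, CSF1R, CD163, IL2RG and GIMAP4, all known from white blood cells, were followed in the psoas major, a muscle of the loin, of 41 pigs. They are 7 of the 25880 genes in the count tables, listed by their pig gene symbol, and LCP1 was chosen by its own value against feed conversion in the Duroc pigs of these libraries, so that value is given without a test. The pigs were purebred, uncastrated males, 13 Danbred Duroc aged 131 to 156 days and 28 Danbred Landrace aged 147 to 166 days, and all were raised at a single breeding station and fed ad libitum. No pig received a treatment, and each library came from a different pig. The feed conversion ratio (FCR) is the feed a pig ate for its weight gain, so a low FCR marks an efficient pig. It ran from 1.83 to 2.18 in Duroc and from 1.92 to 2.25 in Landrace. The labels also gave the RNA integrity number (RIN), from 6.5 to 8.8, and 1 of 5 batches, which the methods tie to slaughter days. The counts on genes were 22188911 to 25954816 per pig.

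Muscle holds few leukocytes beside its fibres, mostly macrophages that sit between the fibres together with T cells and other lymphocytes in and around the vessels. LCP1 encodes L-plastin, an actin-bundling protein of blood cells. PTPRC encodes CD45, the membrane phosphatase that nearly all leukocytes carry, and it controls the Src kinases of antigen receptors. CD79A is a signalling chain of the B cell receptor. CSF1R is the receptor for CSF1 and IL34, on which macrophages depend, and CD163 is the macrophage receptor that takes up haemoglobin bound to haptoglobin. IL2RG is the common gamma chain shared by the receptors for IL2, IL7, IL15 and related cytokines, and it signals through JAK3. GIMAP4 is a small GTPase of lymphocytes.

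All 7 genes were measured in every pig, at low counts. LCP1, on chromosome 11 from 21126504 to 21223543 in Sscrofa11.1, had 38 to 605 read pairs per pig with a median of 159. PTPRC on chromosome 10 had 17 to 200 pairs, CSF1R on chromosome 2 had 25 to 617, CD163 on chromosome 5 had 46 to 843 and GIMAP4 on chromosome 18 had 36 to 431. The fewest pairs fell on CD79A on chromosome 6, with 9 to 37, and on IL2RG on chromosome X, with 10 to 134. Counting error therefore weighs most on these last 2 genes.

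As normalised read counts (CPM, a gene's counts relative to the scaled total of its library), LCP1 had its lowest, median and highest level at 2.27, 4.81 and 9.71 in the 13 Duroc pigs and at 1.77, 7.03 and 22.9 in the 28 Landrace pigs. The breeds overlapped, though 7 Landrace pigs lay above the highest Duroc pig and 3 below the lowest. A single Landrace pig, with the lowest FCR of its breed, stood above all others for LCP1, PTPRC, IL2RG and GIMAP4. PTPRC ran from 1.17 over 2.09 to 4.74 CPM in Duroc and from 0.799 over 3.23 to 7.57 CPM in Landrace. CD79A ran from 0.367 over 0.749 to 1.08 CPM in Duroc and from 0.563 over 0.815 to 1.50 CPM in Landrace, and it varied least among the 7 genes, with a coefficient of variation of 30.6% over all pigs. CSF1R varied most, with 63.6%, and ran from 1.85 over 7.46 to 14.6 CPM in Duroc and from 1.25 over 5.90 to 21.5 CPM in Landrace. CD163 ran from 3.59 over 8.80 to 26.4 CPM in Duroc and from 2.31 over 11.06 to 28.3 CPM in Landrace. IL2RG ran from 0.660 over 1.14 to 3.42 CPM in Duroc and from 0.502 over 1.65 to 5.07 CPM in Landrace. GIMAP4 ran from 2.82 over 6.00 to 13.7 CPM in Duroc and from 1.81 over 7.22 to 16.3 CPM in Landrace. In every gene the breeds overlapped.

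**Figure D1:**
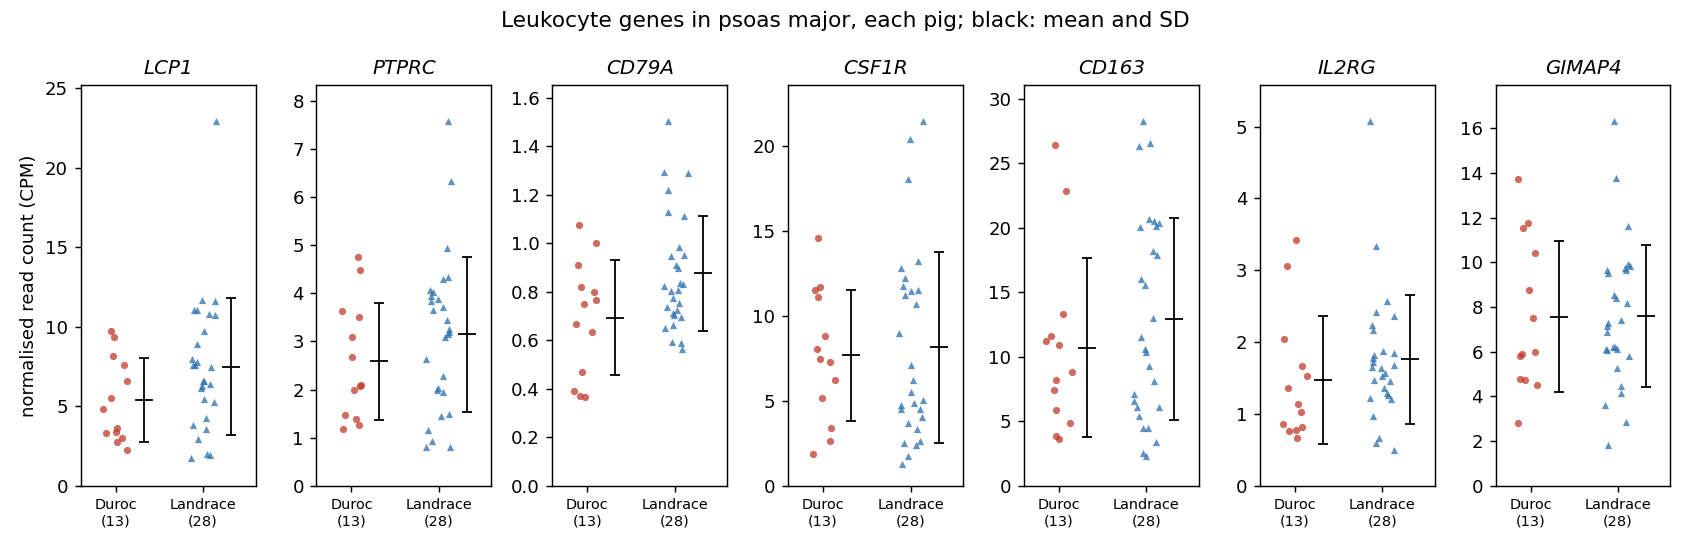
Normalised read count (CPM, linear axis from 0) of each of the 7 genes in each Duroc (circles, 13 pigs) and Landrace (triangles, 28 pigs) pig, with the mean and SD of each breed in black. The breeds overlap in all 7 genes, and 1 Landrace pig reaches 22.9 CPM of LCP1.

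The tissue and the leukocyte label were read beside marker genes. The leukocyte lists hold the 7 genes themselves, so their counts and sums include them. LCP1, PTPRC, IL2RG and GIMAP4 are pan-leukocyte genes there, CSF1R and CD163 macrophage genes and CD79A a B cell gene. The libraries were muscle, with the skeletal actin gene ACTA1 at a mean of 106127 CPM. Counted over the listed genes that had a gene ID in the tables, all 25 pan-leukocyte genes passed the filter on low counts, and their summed level ran from 52.5 to 122 CPM in Duroc and from 32.9 to 207 CPM in Landrace. Of 22 macrophage and monocyte genes 18 passed, summing to 43.7 to 175 CPM in Duroc and 36.9 to 275 CPM in Landrace. T and NK cell genes were sparse, and 4 of 18 passed, among them CD3E, the signalling chain of the T cell receptor, with 12 to 155 pairs. Of 16 B and plasma cell genes 4 passed. CD79B, the partner chain of CD79A, had 0 to 11 pairs and MS4A1 (CD20) 0 to 12, while the plasma cell genes JCHAIN and TNFRSF17 had 29 to 234 and 13 to 64. Of 7 granulocyte and mast cell genes 2 passed, MS4A2 with 12 to 193 pairs and KIT with 6 to 107. The granulocyte gene CSF3R had 1 to 26 pairs, and MPO and S100A8 were at 0 in 31 and 17 pigs. In bulk tissue fewer cells of a type and less RNA per cell cannot be told apart.

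The levels of the 7 genes went together from pig to pig. Pearson's r of the log2 CPM was above 0 for all 21 pairs of genes, from 0.310 to 0.929 with a median of 0.570, and all 21 had an adjusted permutation p below 0.1 (two-sided, 100000 permutations, Benjamini-Hochberg over the 21 pairs). The highest was that of the macrophage pair CSF1R and CD163, with r = 0.929, rho = 0.932 and an adjusted permutation p of 3e-05, the smallest the permutations can give here. Without the 2 pigs farthest from the median of CSF1R it was 0.921, and within the 3 batches of at least 6 pigs it was 0.855, 0.959 and 0.850. LCP1 and PTPRC followed, with r = 0.891, rho = 0.877 and an adjusted permutation p of 3e-05. That value was 0.863 without the 2 farthest pigs and 0.927, 0.924 and 0.738 within the batches.

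LCP1 went with GIMAP4 (r = 0.795), IL2RG (0.773), CD163 (0.729) and CSF1R (0.640), all with an adjusted permutation p of 6.3e-05 or less. Within batches this was weaker for IL2RG in batch 3 (0.271) and for CSF1R in batch 2 (0.234). IL2RG and GIMAP4 went together with r = 0.792, at 0.916 and 0.860 in batches 2 and 5 and at 0.259 in batch 3. The lowest r of all pairs was that of IL2RG with CSF1R, at 0.310 (rho = 0.281, adjusted permutation p = 0.0487), and it had the opposite sign in batches 2 (-0.144) and 3 (-0.180). IL2RG with CD163 also turned in batch 3 (-0.267), and CSF1R with GIMAP4 in batch 2 (-0.0579). CD79A had r of 0.334 to 0.495 with the other 6 genes. Its relations with PTPRC (0.252, -0.0145 and 0.272) and CD163 (0.389, -0.190 and 0.446) turned in batch 3. With log2 values adjusted for FCR, RIN, age, breed and batch 19 of the 21 pairs had an adjusted permutation p below 0.1, and the 2 that did not were CD79A with PTPRC and with CD163. Within Landrace all 21 did and within the 13 Duroc pigs 7 did, where the relation of IL2RG with CSF1R was -0.0676 and with CD163 -0.0846. The 2 values of each point come from the same library and share its depth and scaling.

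**Figure D2:**
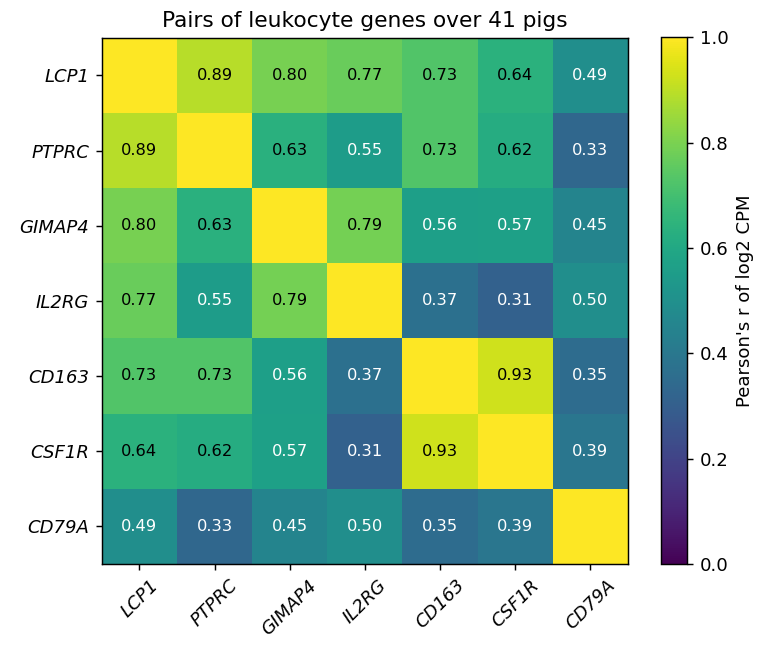
Pearson's r of log2 CPM over 41 pigs for each pair of the 7 genes, on a colour scale from 0 to 1. CSF1R and CD163 (0.93) and LCP1 and PTPRC (0.89) are the closest pairs, and CD79A has no value above 0.50.

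Over all 11146 genes tested, the genes most like each of the 7 were sought by Pearson's r of the adjusted log2 values over the 41 pigs, as a description. The 10 nearest to LCP1 were LAPTM5 (0.910), a lysosomal protein of blood cells, JAK3 (0.909), IL2RB (0.903), DOCK10 (0.894), ARHGAP45 (0.891), PTPRC (0.888), DOCK2 (0.884), HCLS1 (0.880), ARHGAP30 (0.879) and SASH3 (0.877). JAK3 and IL2RB encode the kinase and the beta chain that work with the IL2RG chain, and DOCK2 and HCLS1 act on the actin skeleton of blood cells. In all, 51 genes had r above 0.8 with LCP1, while the median over all genes was -0.0231.

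Nearest to PTPRC were LCP1 (0.888), IL2RB (0.836), DOCK10 (0.829), ARHGAP30 (0.818) and MAP4K1 (0.812). Nearest to CSF1R were the mannose receptor gene MRC1 (0.925), CD163 (0.916), C4BPA (0.908), C1QC (0.902), a chain of complement C1q, and VSIG4 (0.898), a complement receptor of macrophages. Nearest to CD163 were MRC1 (0.931), the scavenger receptor STAB1 (0.917), CSF1R (0.916), SRGN (0.908) and IRF5 (0.905). Nearest to IL2RG were FYB1 (0.918), CD37 (0.899), a gene without a symbol (0.884), RAC2 (0.884) and FGD3 (0.864). Nearest to GIMAP4 were a gene without a symbol (0.886), LAPTM5 (0.855), FCER1G (0.855), LCP1 (0.855) and FGD2 (0.845). CD79A was different: its nearest genes were RBMS1 (0.640), ZNF414 (0.637), ZMYM3 (0.631), DPF1 (0.604) and SEMA6D (0.603), none of them a B cell gene of the list, and no gene exceeded 0.8.

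Against FCR, in models adjusted for RIN, age and batch, the 6 genes other than LCP1 sloped upward in Duroc, while 5 of all 7 sloped downward in Landrace. In the 13 Duroc pigs, adjusted for RIN, age and batch with DESeq2, the log2 level of LCP1 was higher by 0.49 ± 0.12 (SE) per 0.1 of FCR, a 1.41-fold difference, which is the value that chose the gene. In the 28 Landrace pigs, which did not choose it, LCP1 differed by -0.40 ± 0.15 (SE) per 0.1 of FCR, a 0.760-fold difference (DESeq2, p = 0.00705, FDR = 0.541). The unadjusted levels show how far these slopes lean on the fit. In the 3 Duroc pigs of lowest FCR (1.83, 1.85 and 1.89) LCP1 was at 2.98, 4.81 and 2.77 CPM, and in the 3 of highest FCR (2.08, 2.11 and 2.18) at 3.33, 5.50 and 9.35 CPM. The Pearson r of LCP1 with FCR was 0.339 in Duroc and 0.063 without the 2 pigs farthest from the median FCR. In Landrace, the pig at FCR 1.92 had 22.9 CPM and the pig at 2.25 had 1.77 CPM, the ends of the whole range, while the pigs next to them, at 1.98 and 2.22, had 6.12 to 7.79 CPM. Here r was -0.309 (rho = -0.162, permutation p = 0.108, adjusted p = 0.350 over 13 relations), and without these 2 pigs it was 0.0246, so the unadjusted relation rested on them. Within Landrace batches 2, 3 and 5 it was -0.536, -0.00604 and 0.0638. The unadjusted r of the other 6 genes in Duroc ran from -0.0327 in IL2RG to 0.491 in CD79A, with adjusted permutation p of 0.350 or more. Without the 2 farthest pigs it was -0.365 in IL2RG and -0.106 in GIMAP4, and 0.253 to 0.430 in the other 4. In Landrace the unadjusted r of the other 6 genes ran from -0.320 in IL2RG to 0.0874 in CD79A, and without the 2 farthest pigs from -0.0391 in PTPRC to 0.190 in CD79A.

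**Figure D3:**
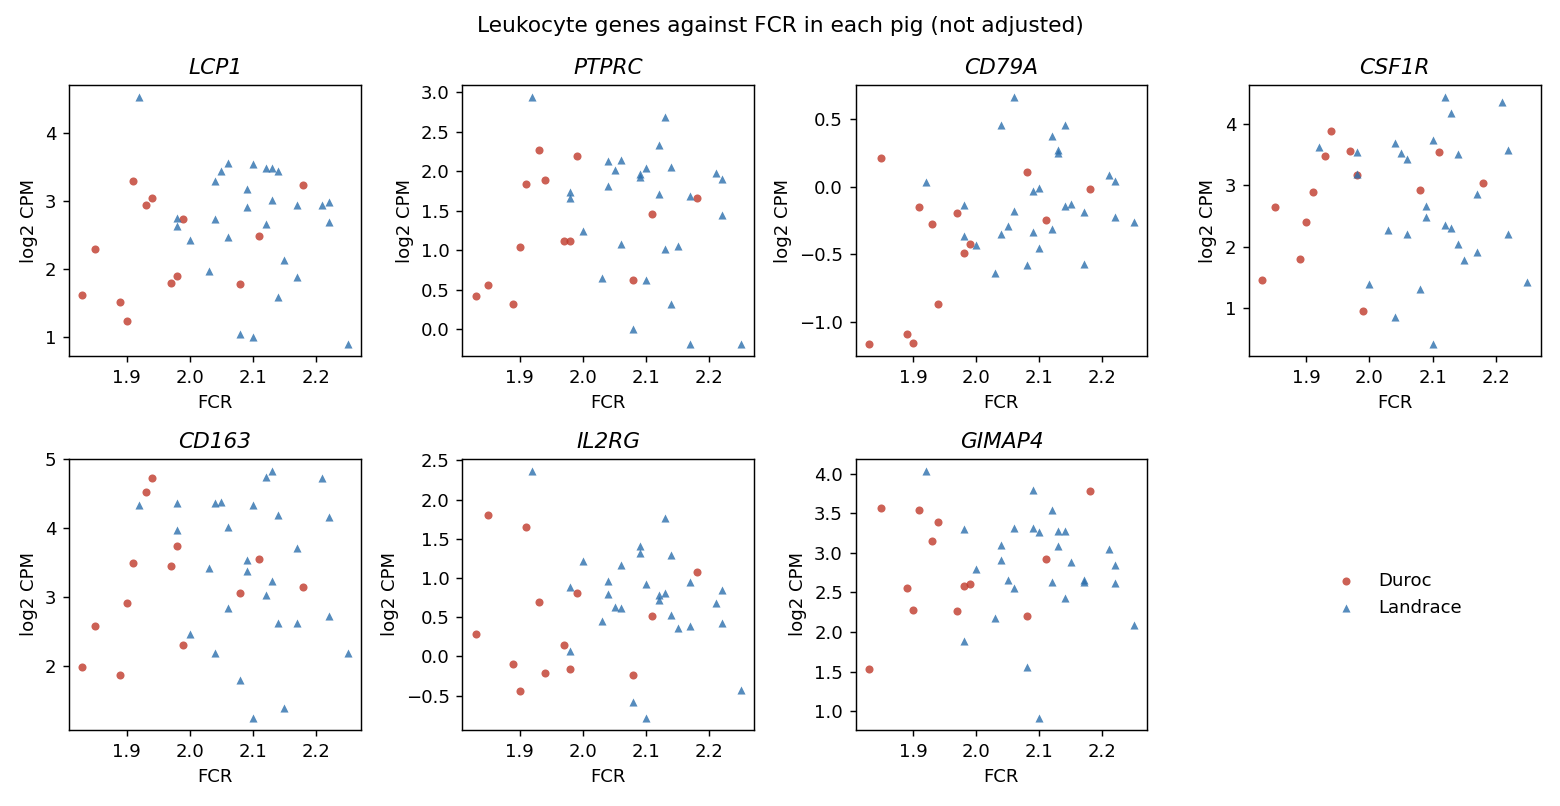
Log2 CPM of each of the 7 genes (y axis) against FCR (x axis) in each Duroc (circles) and Landrace (triangles) pig, not adjusted for other terms. The Landrace pig at FCR 1.92 and the one at 2.25 hold the highest and the lowest LCP1 level of all 41 pigs.

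None of the other 6 genes passed FDR 0.1 in Duroc, where 0.0886% of the 11292 genes tested did (10 genes, LCP1, chosen by this value, among them). LCP1 was no longer among the genes that passed without Duroc 5, Duroc 6 or Duroc 10, and without several other single pigs. With DESeq2, 2 of the 6 had an unadjusted p below 0.05, and with edgeR likewise 2 and none passed. GIMAP4 differed by 0.49 ± 0.14 (SE) per 0.1 of FCR (p = 0.000307, FDR = 0.270), rank 12 by p among all genes. PTPRC differed by 0.48 ± 0.17 (p = 0.00532, FDR = 0.871). The slopes of CD163 (0.35 ± 0.34), CSF1R (0.33 ± 0.36), CD79A (0.32 ± 0.25) and IL2RG (0.22 ± 0.18) were less than 1.5 SE from 0. In the median of all genes the slope was 0.01 per 0.1 of FCR, and 54.1% of all genes sloped upward. Single pigs decided several of these values. The Duroc model has terms for 5 batches, with 1 pig in batch 1 and only 2 in batch 3, Duroc 4 and Duroc 8. Its slopes and SE thus rest on few pigs per term. Without either of these 2 pigs the other is fitted by its own batch term, so both fits give the same result. Without Duroc 11, the pig of lowest FCR, the slope per unit of FCR went from 4.95 to 2.10 in GIMAP4 and from 3.46 to -0.65 in CD163, while that of CSF1R went from 3.26 to -3.19 and that of CD79A from 3.19 to 1.71. Other removals made slopes steeper. Without Duroc 6 the slope went to 5.27 in CD79A and from 2.21 to 3.45 in IL2RG, and without Duroc 10 to 5.58 in CD163. GIMAP4 passed without Duroc 4 (FDR = 0.0162) or Duroc 8 (FDR = 0.0137), and PTPRC without Duroc 13 (FDR = 0.0803). Without Duroc 11 none of the 6 had an unadjusted p below 0.05, and without Duroc 4 or Duroc 8 it was 4 of the 6. With age left out of the model the slope per unit of FCR went from 4.94 to 3.09 ± 1.82 in LCP1, from 4.80 to 3.11 ± 2.01 in PTPRC (p = 0.123), from 3.46 to 2.27 in CD163 and from 2.21 to 0.84 in IL2RG, and 1 of the 6 kept a p below 0.05 (GIMAP4, p = 0.0202).

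In Landrace none of the 7 genes passed FDR 0.1 with DESeq2, where 0.0368% of 10874 genes did (4 genes), while 3 of the 7 had an unadjusted p below 0.05, and with edgeR 3 and none passed. Without Landrace 11, the pig of 22.9 CPM LCP1, the count went from 3 to 0 with DESeq2, at p = 0.0887 for LCP1, 0.0581 for PTPRC and 0.118 for IL2RG. It was 1 with batch left out of the model, where IL2RG had p = 0.0242, and 2 with age left out. IL2RG differed by -0.39 ± 0.13 (SE) per 0.1 of FCR (p = 0.00266, FDR = 0.519) and PTPRC by -0.35 ± 0.14 (p = 0.0136, FDR = 0.639). The paper drew its interaction genes, IL2RG among them, from genes of low FCR p in both breeds, so this p of IL2RG is no separate test. With its strand columns summed, as described with the counting of IL2RG, the slope of IL2RG per unit of FCR was -1.15 in place of -3.89 (p = 0.130). GIMAP4 (-0.23 ± 0.13, p = 0.0795) and CD163 (-0.16 ± 0.14, p = 0.254) had smaller slopes, and CD79A (0.02 ± 0.11) and CSF1R (0.02 ± 0.15) lay at 0 within their error. Without the same pig the slope per unit of FCR went from -3.89 to -2.33 in IL2RG and from -2.28 to -1.44 in GIMAP4, and that of LCP1 from -3.97 to -2.97. Without Landrace 8 that of CD163 went from -1.65 to -0.95.

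**Figure D4:**
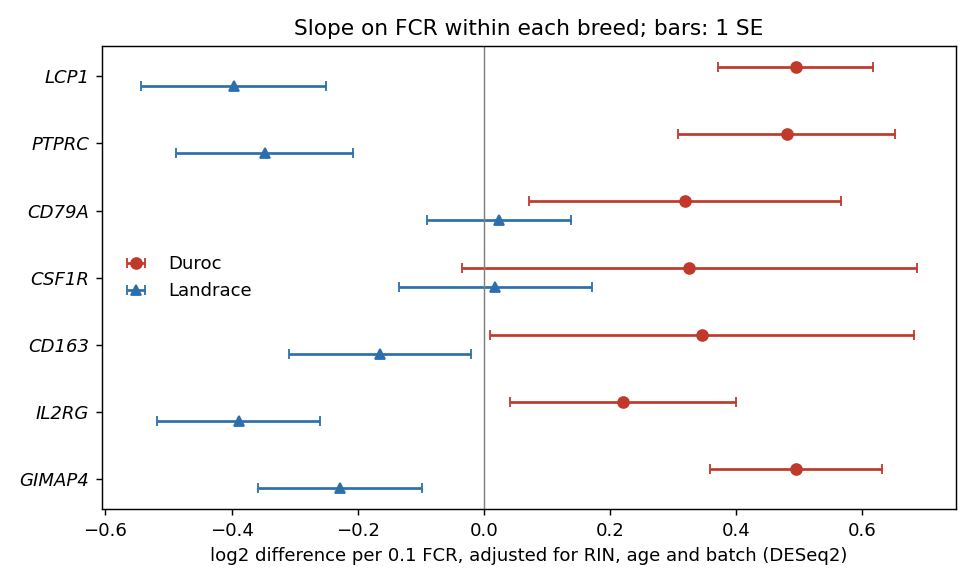
Slope of the log2 level on FCR (x axis, log2 difference per 0.1 of FCR, adjusted for RIN, age and batch) for each of the 7 genes in Duroc (circles) and Landrace (triangles), with bars of 1 SE. LCP1, PTPRC and GIMAP4 lie above 0 in Duroc and below 0 in Landrace, and CSF1R and CD79A lie at 0 in Landrace.

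The pan-leukocyte and macrophage lists leaned upward in Duroc and downward in Landrace, and LCP1 is left out of the counts in Duroc, since its value there chose it. The counts are not separate from the 7 genes. LCP1, PTPRC, IL2RG and GIMAP4 are in the pan-leukocyte list, and CSF1R and CD163 in the macrophage list. PTPRC and GIMAP4 are among its genes with p below 0.05 in Duroc, and LCP1, PTPRC and IL2RG in Landrace, all in the pan-leukocyte list. Of the pan-leukocyte list the other 23 genes tested in Duroc sloped upward, with a median of 0.27 per 0.1 of FCR, 5 had p below 0.05 (4.06% of all genes) and 0 passed FDR 0.1 with DESeq2. The smallest p of the 5 after that of GIMAP4 was that of RAC2, a GTPase of leukocyte actin (0.43 ± 0.14, p = 0.00208, FDR = 0.619). In Landrace 19 of the 21 tested sloped downward, with a median of -0.26, 13 had p below 0.05 (5.90% of all genes) and 0 passed. Of the macrophage and monocyte list 18 of 18 sloped upward in Duroc (median 0.32, 3 with p below 0.05) and 14 of 15 downward in Landrace (median -0.16, 2 with p below 0.05). The smaller leukocyte lists were mixed. T and NK cell genes sloped upward in 4 of 5 in Duroc and downward in 3 of 3 in Landrace, B and plasma cell genes upward in 3 of 4 and downward in 2 of 4 (median -0.02), and granulocyte and mast cell genes upward in 1 of 2 and downward in 2 of 2. The genes of a list share their pigs and went together from pig to pig, so the signs are not separate observations. Endothelial genes sloped upward too in Duroc, 10 of 10 with a median of 0.14 and 3 with p below 0.05, as did fibroblast genes, 9 of 10 with a median of 0.24 and 0 with p below 0.05. Red blood cell genes sloped downward, 2 of 2 with HBB at -0.46, and none of these lists had a gene that passed. In Landrace 7 of 9 endothelial genes sloped downward (median -0.05), 4 of 9 fibroblast genes did (median 0.02) and 6 of 6 adipocyte genes sloped upward (median 0.15), with 0 at p below 0.05 in these 3 lists. Their part in the slopes of the leukocyte genes was not tested.

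Genes of the pathways around the 7 genes were read in each breed in turn. Of the common gamma chain list 12 genes were tested in each breed and 0 passed. The beta chain IL2RB differed by 0.53 ± 0.22 per 0.1 of FCR in Duroc (p = 0.0152) and by -0.36 ± 0.17 in Landrace (p = 0.0283), and JAK3 by 0.33 ± 0.20 and -0.38 ± 0.14. Of the CSF1 receptor pathway 9 genes were tested in each breed, and TYROBP, an adaptor of myeloid receptors, differed by 0.31 ± 0.18 in Duroc and -0.28 ± 0.12 in Landrace (p = 0.0171, FDR = 0.676). The list of CD163 and haem handling leaned the other way in Duroc, with 8 of 10 genes below 0 and CD163 itself above. In Landrace its smallest p was that of TNFRSF12A, the receptor for TWEAK, a ligand that CD163 also binds (0.80 ± 0.24, p = 0.00102, FDR = 0.410). Of the plastins and actin regulators 12 of 14 other than LCP1 sloped upward in Duroc (median 0.13) and 14 of 15, LCP1 included, downward in Landrace (median -0.15), where 8 had p below 0.05, led by ACTB (-0.19 ± 0.06, p = 0.00267, FDR = 0.519). For the leukocyte adhesion list, ITGAL, the alpha chain of LFA-1, differed by 0.32 ± 0.15 in Duroc (p = 0.0361) and -0.38 ± 0.13 in Landrace (p = 0.00390, FDR = 0.519). GIMAP6, the only other tested gene of its family, differed by 0.31 ± 0.18 in Duroc and -0.32 ± 0.14 in Landrace. The lists of CD45 and its kinases and of the B cell receptor had no gene other than PTPRC with p below 0.05 in Duroc, and in Landrace CSK (-0.16 ± 0.07, p = 0.0271), the kinase that inhibits the Src kinases, and BLNK (-0.24 ± 0.12, p = 0.0430) beside PTPRC. No gene of these lists passed in either breed, leaving aside LCP1 in Duroc, which its value there chose and which is not counted as a test.

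The difference between the breeds' slopes was tested itself over all 41 pigs, and it did not pass for any of the other 6 genes. In the joint edgeR model with a product of FCR and breed, 0% of 11146 genes passed FDR 0.1 and 582 had an unadjusted p below 0.05. The slope in Landrace minus that in Duroc was -0.40 ± 0.21 (SE) per 0.1 of FCR in GIMAP4 (p = 0.0702, FDR = 0.925), -0.46 ± 0.25 in PTPRC (p = 0.0717, FDR = 0.927) and -0.31 ± 0.21 in IL2RG (p = 0.142, FDR = 0.934). It was -0.17 ± 0.30 in CD163, -0.12 ± 0.16 in CD79A and -0.06 ± 0.30 in CSF1R. None of the 6 had an unadjusted p below 0.05 with edgeR, DESeq2 or limma, but with batch as a number 2 did, PTPRC (p = 0.0409, FDR = 0.523) and GIMAP4 (p = 0.0421, FDR = 0.523). For LCP1 it was -0.52 ± 0.25, which the choice of the gene in Duroc bears on.

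With both breeds in a single slope, no gene of the 11146 passed FDR 0.1 for FCR with edgeR (0%; 968 with an unadjusted p below 0.05), and of the 7 genes 1 had an unadjusted p below 0.05, with edgeR, DESeq2 and limma alike. That gene was IL2RG, at -0.25 ± 0.10 (SE) per 0.1 of FCR (p = 0.0230, FDR = 0.535), and without Landrace 11 its slope per unit went from -2.46 to -1.14. The paper names IL2RG among its interaction genes, which were taken from a set of low FCR p in these same pigs. A small FCR p of IL2RG is therefore not a separate test. IL2RG did not have a p below 0.05 without Duroc 10, Landrace 11 or Landrace 24, with batch as a number (p = 0.0639) or with library size only (p = 0.0862). With both strand columns summed, an alternative described with the counting of IL2RG, the slope was -0.71 ± 0.57 (p = 0.219). LCP1 was at -0.13 ± 0.13 and PTPRC at -0.07 ± 0.13. The other 4 lay within 1 SE of 0. Of the pan-leukocyte list 22 of 25 genes lay below 0, with a median of -0.12 beside 0.00 for all genes.

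Between the breeds, adjusted for FCR, RIN, age and batch, 1 of the 7 genes passed FDR 0.1, beside 33.1% of all 11146 genes. CSF1R was lower in Landrace, at a log2 difference of -0.92 ± 0.40 (SE), 0.529-fold (edgeR, p = 0.0281, FDR = 0.0893). The unadjusted means went the other way, at 8.15 ± 5.63 CPM (SD) over the 28 Landrace pigs against 7.69 ± 3.85 CPM (SD) over the 13 Duroc pigs. Within batches, the mean log2 level in Landrace minus that in Duroc was 0.36 in batch 2 and 0.41 in batch 3 but -1.67 in batch 4 and -1.03 in batch 5. The result did not pass with both strand columns summed (-0.54, FDR = 0.123), where the unstranded column kept 39.4% of the CSF1R pairs. Nor did it pass with age left out (-0.52, FDR = 0.328), with limma (-0.53, FDR = 0.325), with batch as a number (-0.76, FDR = 0.168), with no filter on low counts (-0.91, FDR = 0.117), or without any 1 of 18 pigs, namely Duroc 5, 6, 8, 9 and 10 and Landrace 1, 4, 6, 9, 15, 18, 19, 20, 21, 23, 24, 25 and 28 (FDR 0.102 to 0.176).

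The other 6 genes did not pass for breed in this fit, though IL2RG passed with both strand columns summed (FDR = 0.0926), where pairs may come from another gene. LCP1 was at 0.04 ± 0.37, PTPRC at 0.11 ± 0.36, IL2RG at 0.08 ± 0.30, CD79A at -0.05 ± 0.20, CD163 at -0.30 ± 0.42 and GIMAP4 at -0.39 ± 0.31 (log2 ± SE). Without Duroc 6 GIMAP4 was at -0.03, and without Duroc 3 at -0.61. Of the pan-leukocyte list 1 of 25 passed, the integrin adaptor FERMT3 (-0.55 ± 0.22, FDR = 0.0659), and ARHGDIB, of highest CPM in the list, was at -0.26 (FDR = 0.400). The median of the list was 0.04 beside 0.00 for all genes. Of the macrophage list CSF1R alone passed out of 18, while C1QB, of highest CPM there, was at 0.69 (FDR = 0.112). In the CSF1 receptor pathway the ligand gene IL34 was also lower in Landrace (-0.64 ± 0.23, FDR = 0.0362). The kinase LYN, of the CD45 and B cell receptor lists, was lower too (-0.51 ± 0.18, FDR = 0.0377). In the common gamma chain list 2 of 12 genes were higher in Landrace and 3 lower, beside 15.6% of all genes that were higher and 17.5% that were lower. STAT5B (0.44 ± 0.09, FDR = 0.000735) and STAT5A (0.51 ± 0.13, FDR = 0.00509), transcription factors below the receptor, rose in Landrace and IL4R, which pairs with IL2RG in the IL4 receptor, fell (-0.52 ± 0.18, FDR = 0.0316). Of the endothelial list 8 of 9 genes fell, beside 17.5% of all genes, led by KDR (-1.48 ± 0.22, FDR = 9.52e-06). The summed level of the endothelial genes ran from 85.4 to 244 CPM in Duroc and from 46.8 to 215 CPM in Landrace. Their part in the CSF1R result was not tested.

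With RNA integrity, 2 of the 7 genes passed FDR 0.1, beside 51.8% of all genes, and both fell as RIN rose. IL2RG differed by -0.69 ± 0.23 (SE) per unit of RIN, 0.621-fold (edgeR, p = 0.00449, FDR = 0.0132), and it passed without any 1 of the 41 pigs (-0.91 to -0.55). In the 3 Duroc pigs of lowest RIN (7 to 7.9) the lowest, median and highest level was 2.04, 3.07 and 3.42 CPM, and in the 6 Duroc pigs of RIN 8.3 to 8.8 it was 0.660, 0.801 and 1.53 CPM. Of the low group Duroc 10 and Duroc 6 were in batch 5, and no pig of the high group was. In the 4 Landrace pigs of lowest RIN (6.5 to 7.1) the level was 1.23, 2.41 and 3.33 CPM, and in the 6 of RIN 8.3 it was 0.968, 1.58 and 1.85 CPM, with overlap. These levels were not adjusted, and no share of all genes was taken for these pigs. The unadjusted r with RIN was -0.381 (rho = -0.368, permutation p = 0.0143, adjusted p = 0.0665 over 7 genes), -0.246 without the 2 pigs of most distant RIN, and -0.386, -0.310 and -0.579 within batches 2, 3 and 5.

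GIMAP4 differed by -0.49 ± 0.23 per unit of RIN (p = 0.0401, FDR = 0.0814). It did not pass without the 2 pigs of RIN below 7 (-0.43, FDR = 0.362) or without any 1 of 18 pigs, namely Duroc 2, 4, 10, 11, 12 and 13 and Landrace 1, 5, 8, 13, 14, 17, 18, 22, 23, 25, 27 and 28 (FDR 0.102 to 0.208). The macrophage genes CSF1R (0.50 ± 0.30, FDR = 0.171) and CD163 (0.40 ± 0.30, FDR = 0.294) had slopes above 0, but with both strand columns summed that of CSF1R turned to -0.23 (FDR = 0.334). In the unstranded column CSF1R passed without Landrace 27 (FDR = 0.0984) or Landrace 28 (FDR = 0.0821). Their unadjusted r with RIN was 0.362 and 0.343 (rho = 0.412 and 0.432, both with an adjusted permutation p of 0.0665), with 0.433 and 0.447 without the 2 most distant pigs, and for CD163 it turned to -0.103 in batch 5. LCP1 (-0.02 ± 0.29), CD79A (-0.07 ± 0.17) and PTPRC (0.24 ± 0.27) lay within 1 SE of 0. With scaling by library size alone, the median of all genes moved by 0.31 per unit of RIN. Relative to that median IL2RG was at -0.66 and GIMAP4 at -0.46, but their own values were -0.36 (FDR = 0.193) and -0.17 (FDR = 0.585), which did not pass, while CSF1R (0.82, FDR = 0.0259) and CD163 (0.72, FDR = 0.0582) did.

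**Figure D5:**
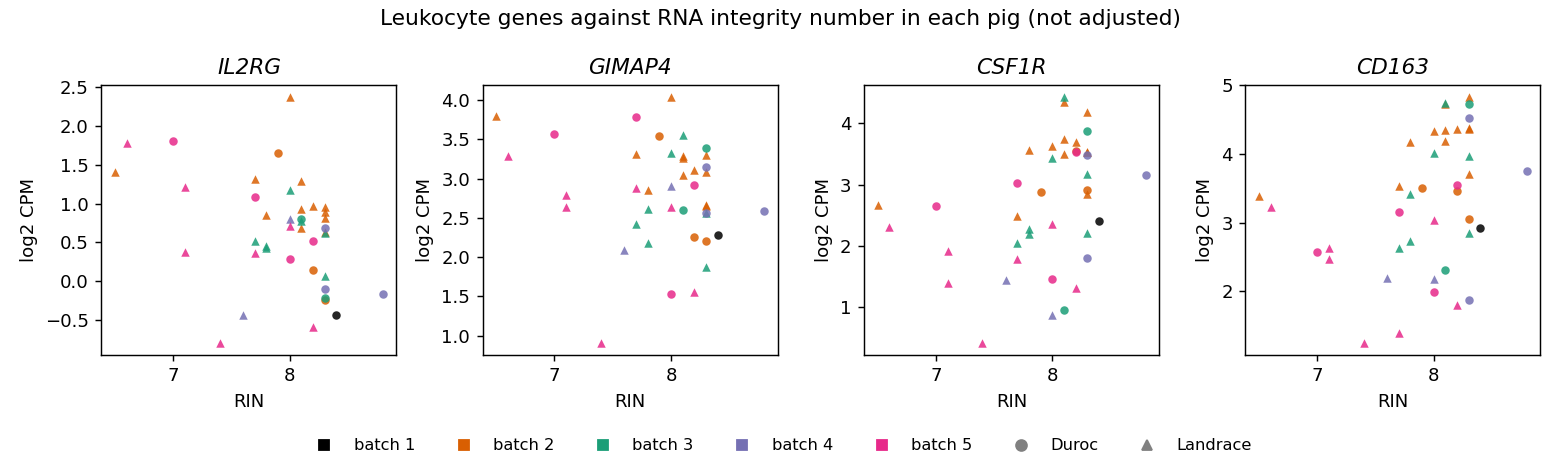
Log2 CPM of IL2RG, GIMAP4, CSF1R and CD163 (y axis) against RIN (x axis) in each pig, not adjusted, coloured by batch, with circles for Duroc and triangles for Landrace. IL2RG is lower at high RIN (r = -0.381), and CSF1R (0.362) and CD163 (0.343) are higher, all in the unstranded counts, while the adjusted CSF1R slope turned to -0.23 with both strand columns summed.

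Of the pan-leukocyte list 6 of 25 genes fell with RIN and 0 rose, beside 27.9% of all genes that fell and 23.9% that rose, so the share that fell was near that of all genes. The 6 were SPI1, a transcription factor of myeloid and B cells (-0.62 ± 0.15, FDR = 0.000788), FERMT3 (-0.57 ± 0.17, FDR = 0.00579), CD37 (-0.64 ± 0.21, FDR = 0.0132), CORO1A, an actin regulator (-0.53, FDR = 0.0540), IL2RG and GIMAP4. Of the T and NK cell list CD247 (-0.47 ± 0.15, FDR = 0.0130), CD3E (-0.67, FDR = 0.0758) and NKG7 (-0.46, FDR = 0.0779) fell, 3 of 4 tested, and of the macrophage list 0 of 18 passed with edgeR (0 with an unadjusted p below 0.05). Of the plastins and actin regulators 5 of 14 fell, led by CFL1 (-0.46 ± 0.08, FDR = 1.32e-05), ACTB (-0.47 ± 0.10, FDR = 0.000191) and TMSB4X (-0.35 ± 0.10, FDR = 0.00301), and PLS3, the plastin of non-blood cells, rose (0.48 ± 0.18, FDR = 0.0302). Of CD163 and haem handling 5 of 10 fell, led by the biliverdin reductases BLVRB (-1.05 ± 0.13, FDR = 1.03e-07) and BLVRA (-0.35 ± 0.08, FDR = 0.000377). In the common gamma chain list STAT3 (0.81 ± 0.12, FDR = 1.82e-06) and JAK1 (0.36, FDR = 2.34e-05) rose where IL2RG fell. The red blood cell genes HBB (-1.26 ± 0.35, FDR = 0.00335) and ALAS2 (-1.05 ± 0.37, FDR = 0.0217) also fell with RIN, 2 of 2 tested, with a summed level from 6.15 to 312 CPM over the pigs. Their part in the RIN results of IL2RG and GIMAP4 was not tested.

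In the joint edgeR model batch was the term with most of the 7 genes past the threshold. It tied with RIN with no filter on low counts (1 gene each) and with age left out or batch as a number (2 genes each). CSF1R (FDR = 0.0274), CD163 (FDR = 0.0850) and LCP1 (FDR = 0.0926) passed in the joint edgeR model, 3 of 7 beside 24.1% of all genes, and IL2RG was just outside (FDR = 0.107). LCP1 did not pass with limma (FDR = 0.289), batch as a number (0.139), no filter on low counts (0.131) or age left out (0.101), and CD163 did not pass with no filter (0.112). Over both breeds together all 3 had their highest mean in batch 2. LCP1 had a mean of 9.27 CPM there, 6.90 in batch 3, 4.48 in batch 4 and 4.90 in batch 5, and the only pig of batch 1 had 2.27. CSF1R had 11.2, 8.38, 5.54 and 4.69 CPM in batches 2 to 5, and CD163 had 17.2, 13.3, 9.75 and 6.13. The batches differed in breed, since batch 2 held 12 Landrace and 3 Duroc pigs and batch 4 held 2 and 3. Among Landrace pigs alone CD163 was at 18.9 ± 5.37 CPM (SD, n = 12) in batch 2 and 5.32 ± 2.73 CPM (SD, n = 7) in batch 5, and LCP1 at 10.2 ± 4.33 and 4.47 ± 2.23 CPM. In Duroc batch 2 was not the highest for these 2 genes. There the mean log2 CPM in batches 2 to 5 was 2.28, 2.89, 2.12 and 2.40 for LCP1. For CD163 it was 3.34, 3.52, 3.38 and 2.82, and for CSF1R, highest in batch 2, it was 3.12, 2.41, 2.81 and 2.67. In the wider lists 5 of 25 pan-leukocyte genes, led by PLEK (FDR = 0.0117) and the integrin chain ITGB2 (FDR = 0.0451), and 7 of 18 macrophage genes, led by ITGAM (FDR = 0.0221), passed for batch. Of the endothelial list 5 of 9 genes passed, led by KDR (FDR = 0.00906), and their part in the batch results of the leukocyte genes was not tested.

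With age none of the 7 genes passed FDR 0.1 with edgeR, beside 1.76% of all genes, and 0 had an unadjusted p below 0.05, 1 with DESeq2 and 0 with limma. All 7 slopes lay above 0, and the steepest was that of CSF1R, at 0.06 ± 0.03 (SE) per day (p = 0.0584, FDR = 0.330).

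Both CSF1R and IL2RG were counted on a part of their read pairs. The count for unstranded libraries leaves out a pair that falls on 2 genes, and the tables also hold counts per strand. Over the 41 pigs CSF1R had 8823 pairs in the unstranded column and 22398 in the sum of both strand columns, so 39.4% were kept. The gene beside it, HMGXB3, from 151028776 to 151102027 on chromosome 2, ends just before CSF1R starts at 151102138 and lost nearly the same number, 13583 against 13575. IL2RG, from 57143568 to 57151242 on chromosome X, kept 1699 of 5030 pairs, 33.8%. Its left-out pairs were most like those of FOXO4, from 57132549 to 57140377, which lost 2847 pairs and had 72956 in the unstranded column. The other 5 genes kept all their pairs. With the strand columns summed, an alternative chosen after seeing the data, CSF1R no longer passed for breed (-0.54, FDR = 0.123) and its RIN slope turned (-0.23, FDR = 0.334), while IL2RG passed for breed (0.36, FDR = 0.0926). The slope of IL2RG per unit of FCR went from -3.89 to -1.15 in Landrace (p = 0.130) and from 2.21 to 1.03 in Duroc (p = 0.395), and the difference between the breeds' slopes from -3.11 to -0.59 (p = 0.616). That of CSF1R in Duroc went from 3.26 to 1.12 (p = 0.477). In these sums IL2RG fell with RIN (-0.61 ± 0.12, FDR = 7.11e-05), while GIMAP4 did not pass (-0.41, FDR = 0.146). Of the 5030 summed IL2RG pairs 3331 were left out of the unstranded column and may come from another gene. The summed values of IL2RG are therefore no check of its unstranded ones. The CSF1R sums likewise include pairs that may come from the neighbouring gene.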

How the data were processed

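RNA from the psoas major of 41 boars was sequenced as read pairs. The authors trimmed them with Trimmomatic 0.39 and aligned them to Sscrofa11.1 with STAR 2.7.1a, and the deposited files hold whole counts per Ensembl gene, not normalised. The unstranded column was used, which cannot separate antisense genes and leaves out pairs on overlapping genes. Symbols came from a table of gene IDs (14857 of 25880 genes matched), and coordinates from the RefSeq annotation of Sscrofa11.1. Breed, FCR, RIN, age and batch came from the labels. The methods word FCR as gain over feed, while label values of 1.83 to 2.25 fit feed over gain, which is used here.

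The joint model, with terms for breed, batch (a factor), age, RIN and FCR, was fitted in R 4.3.3 with the quasi-likelihood test of edgeR 4.0.16, TMM scaling and filterByExpr. FCR by breed added a product term. Within breeds the Wald test of DESeq2 1.42.0 was used on genes with at least 5 counts in every pig. FDR is the Benjamini-Hochberg value over all genes tested, with a threshold of 0.1, and the SE of edgeR values was taken from the test statistic. Levels are CPM, and log2 CPM had a prior count of 2. Correlations, with 100000 two-sided permutations, used Python 3.11.15 and NumPy 2.4.6, and plots matplotlib 3.10.9. Alternatives were DESeq2, limma 3.58.1 with voom, scaling by library size, other filters, terms left out, single pigs left out and, chosen after seeing the data, the sum of both strand columns. The edgeR and DESeq2 fits were tested on simulated data.

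The 7 genes and the gene lists were chosen with earlier results of these data known, so no list was tested as a set. Named are the 7 genes, genes of the lists past the threshold (at most 4 of smallest p) or of highest CPM, and the 5 genes (10 for LCP1) most correlated with each of the 7. Some genes past the threshold are not named. For breed this holds in the T and NK cell, granulocyte and mast cell, adipocyte, fibroblast, satellite cell and myofibre lists. For RIN it holds in the fibroblast list, among others. Other genes named beside them, and those named with p alone, were chosen after their values were seen. No 2 libraries agreed within counting noise (lowest chi-squared per degree of freedom 17.12).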

Additional observations from a re-analysis of the deposited data

Results flagged for a closer look

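CSF1R had 13575 read pairs in the strand columns that the unstranded column leaves out, 171 to 528 per pig with a median of 346. Their level went with the unstranded CSF1R level over the 41 pigs (r = 0.768, rho = 0.748) and with that of CD163 (r = 0.737, rho = 0.702, both with an adjusted permutation p of 2e-05 over 4 relations). Without the 2 pigs farthest from the median these were 0.708 and 0.690, and within batches 2, 3 and 5 they were 0.582, 0.735 and 0.705 for CSF1R and 0.399, 0.816 and 0.734 for CD163.

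IL2RG had 3331 such pairs, 44 to 134 per pig with a median of 81. Their level showed no relation past the threshold with the unstranded IL2RG level (r = 0.156, rho = 0.103, adjusted permutation p = 0.443) or with that of LCP1 (r = 0.013, rho = -0.012, adjusted permutation p = 0.936). Without the 2 farthest pigs r was -0.0405 and -0.134, and within batches 2, 3 and 5 it was 0.502, -0.0952 and 0.0615 for IL2RG and 0.324, -0.234 and -0.0527 for LCP1. Both genes stood out because a signal lies in columns that the comparisons did not use. Of the 10641 genes with more than 1000 pairs, 6.118% kept fewer pairs than they lost.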

How the results depend on the processing

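Over the alternatives other than leaving out single pigs, 417 of 469 values of the 7 genes kept their direction and their side of the threshold, and the cause of none of the following changes was tested. LCP1 for FCR in Duroc and for FCR by breed is the exception. It was scored without the threshold there and counted as kept when its slope held its sign and moved by at most 1 SE. The count of genes past the threshold for breed went from 1 to 0 with age left out, batch as a number, limma or no filter on low counts, and was 0 to 1 with single pigs left out. That for RIN went from 2 to 1 with limma, no filter, summed strand columns or without the 2 pigs of RIN under 7, and was 1 to 2 with single pigs left out. That for batch went from 3 to 5 with library size only, to 4 with DESeq2 or without the pigs of RIN under 7, to 2 with limma, age left out or batch as a number, and to 1 with no filter. That for FCR in Duroc was 0 to 1 with single pigs left out, and correlated pairs went from 21 to 7 within Duroc. No paired analysis was possible because the labels number no replicates that the breeds share.

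The following values changed sign, and none of them passed the threshold. With library size only they were 0.478 (CD163) and 0.137 (GIMAP4) for FCR in all pigs, 0.301 (LCP1) and 0.236 (CD79A) for RIN, and -0.144 (LCP1), -0.0758 (PTPRC) and -0.0980 (IL2RG) for breed. With age left out they were 0.275 (CD163, FCR in all pigs), 0.00756 (LCP1, RIN) and 0.0758 (CD79A, breed), and with batch as a number 0.120 (CD163, FCR in all pigs) and 0.00505 (CD79A, breed). With limma they were 0.0230 (LCP1, RIN), -0.00337 (PTPRC, age) and 0.0137 (CD163, breed), and with no filter 0.0501 (LCP1, RIN). Without the pigs of RIN under 7 they were 0.0577 (CSF1R, FCR by breed), 0.0980 (LCP1, RIN) and -0.00745 (LCP1, breed), and with FCR left out -0.0120 (LCP1) and -0.0894 (IL2RG) for breed. With summed strand columns they were 0.216 (FCR by breed), -0.375 (FCR in Landrace), -0.507 (FCR in all pigs) and -0.227 (RIN) for CSF1R, 0.0560 (LCP1) and 0.00279 (CD79A) for RIN, and -0.0139 (IL2RG, age).

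With single pigs left out, values ran through 0 as follows. For FCR in Duroc CSF1R ran from -3.19 to 5.87 and CD163 from -0.649 to 5.58, and in Landrace CSF1R from -0.493 to 0.933. For FCR in all pigs LCP1 ran from -2.48 to 0.463, PTPRC from -1.48 to 0.563, CSF1R from -0.406 to 0.904, CD163 from -0.887 to 0.397 and GIMAP4 from -1.49 to 0.641. For RIN LCP1 ran from -0.135 to 0.150 and CD79A from -0.219 to 0.0570. For breed LCP1 ran from -0.227 to 0.494, PTPRC from -0.160 to 0.3898, CD79A from -0.157 to 0.0532 and IL2RG from -0.150 to 0.350. Depth limits CD79A, with 9 to 37 read pairs per pig, and IL2RG, with 10 to 134.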
